A study of Homo sapiens with 6 samples.

Results

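The mitochondrial ribosomal protein genes are the nuclear genes for the proteins of the ribosome inside mitochondria. They were taken as the protein-coding genes whose symbol starts with MRPL (large subunit) or MRPS (small subunit) followed by a digit, which gave 77 of the 28495 genes in the table, 48 of the large and 29 of the small subunit. Another 18 genes with such symbols were not annotated as protein-coding and were left out. The test covered 76 of the 77, those with a mean of at least 0.5 FPKM (fragments per kilobase of gene length, scaled to library size) over all libraries.

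RNA sequencing was done on cells labelled NCI-H1299, an established human lung cancer line. The sh-CFB group (3 libraries) was labelled as silenced for CFB, which encodes complement factor B, the protease component of the alternative complement pathway. The sh-NC group (3 libraries) was the control of the same line, and no further treatment or allele is named for either group. Titles name short hairpins while the table's column names have the form used for siRNA, so the reagent is not settled here, and no label says that replicates came from separate cultures, so the p-values speak for the spread among these 6 libraries, which could be technical.

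The mitochondrial ribosome makes the few proteins encoded in mitochondrial DNA, all of them subunits of the respiratory chain and ATP synthase. Its ribosomal RNAs come from mitochondrial DNA, whereas all its proteins are made in the cytosol and imported, so both genomes must supply parts. Some of its proteins descend from bacterial ribosomal proteins and others were added in the mitochondrial lineage, and the structural names of a few subunits differ from their gene symbols.

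The FPKM values held 26.2, 33.4 and 38.4 M reads for the sh-CFB libraries in the order of their replicate numbers, against 39.4, 40.0 and 32.9 M for the sh-NC libraries. Each tested member had at least 553 reads in all. CFB itself had 2 reads in sh-CFB and 12 in sh-NC, too few to check the group labels or to show that it was silenced. KRT18 and VIM were abundant (134.8 to 207.1 and 380.8 to 477.3 FPKM), while CDH1, EPCAM, PTPRC, DCN and CDH5, markers of other epithelial states, immune cells, fibroblasts and endothelium, stayed under 0.13 FPKM in each library. Other markers of these kinds went above that: the fibroblast gene COL1A1 had 0.180 to 0.275 FPKM and the epithelial KRT19 0.0326 to 0.218 FPKM. The lung lineage gene NKX2-1 was also low, at 0.120 to 0.339 FPKM.

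Most mitochondrial ribosomal protein genes had slightly lower values in sh-CFB than in sh-NC libraries, and few passed the test. In bulk RNA, fewer cells that carry a transcript and less of it per cell cannot be told apart. Of the 76 tested members 9 were lower in sh-CFB and 0 were higher (limma, Benjamini-Hochberg adjusted p of 0.05 or less over all 12466 tested genes). That is 11.8% of the members called lower, against 5.71% of all tested genes called lower, 1.74% called higher and 7.45% called in either direction. These shares were not matched for level: the median level was 21.5 FPKM over the members and 3.55 FPKM over all tested genes. At an unadjusted p under 0.05, another 18 members were lower and 1, MRPL54, was higher. MRPL54, a mitochondria-specific large subunit protein, had 74.9, 54.6 and 46.7 FPKM in sh-CFB and 33.5, 42.7 and 49.7 FPKM in sh-NC, with overlapping groups (log2 fold change 0.47, SE 0.20, limma adjusted p = 0.19). The median log2 fold change was -0.24 over the members and -0.15 over all tested genes, a difference of -0.10. Of the 76 tested members 64 lay below 0, 48 of them also below the median gene. Of all 12466 tested genes 8437 lay below 0. The median of all tested genes lay below 0 in these FPKM values, though not in every GC range, as given below. With median-of-ratios scaling the median of all genes moved to 0.02 and that of the members to -0.05, with 44 members below 0 and 1 called, MRPS28. Relative to the median gene the members were lower by a similar margin in that scaling, -0.07, but without sh-NC replicate 3 the difference was 0.01.

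The 3 sh-CFB values lay below all 3 sh-NC values in 37 tested members, 48.7% of them, and above in 1, MRPL10, or 1.32%. Over all tested genes the groups were separate with sh-CFB lower in 23.6% and with sh-CFB higher in 10.0%. The remaining 38 tested members overlapped between groups. With all 6 libraries 9 members and 929 of the 12466 tested genes were called, and both numbers fell when any library was dropped. Leaving out sh-CFB replicate 1 gave 4 members (511 genes in all), replicate 2 gave 0 (39) and replicate 3 gave 4 (400). For sh-NC, dropping replicate 1 gave 2 members (249 genes in all), replicate 2 gave 0 (20) and replicate 3 gave 4 (540). The drop was therefore not particular to the members.

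**Figure D1:**
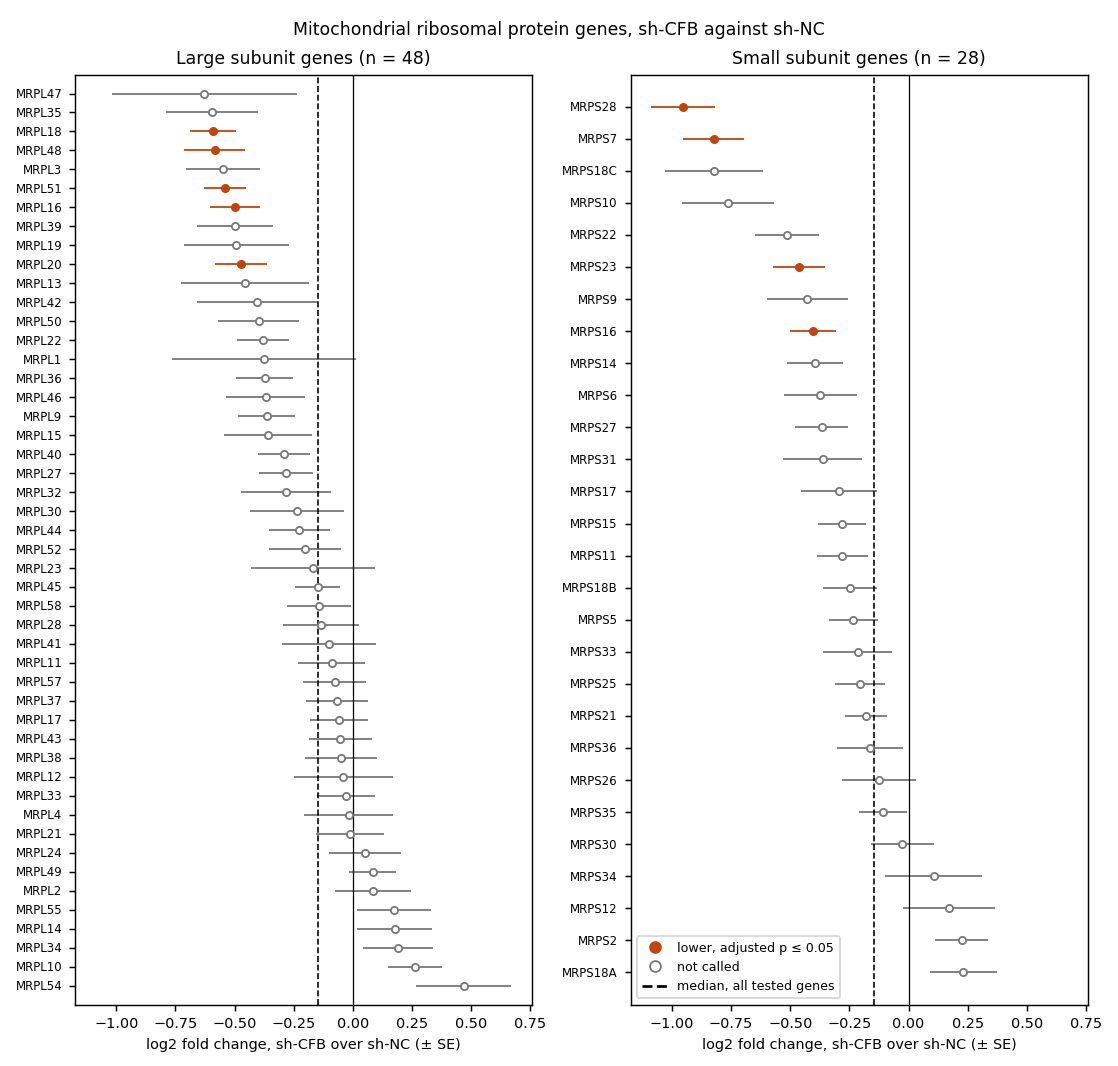
Log2 fold change of sh-CFB over sh-NC (horizontal axis, ± SE from limma) for each tested member, large subunit on the left and small subunit on the right, ordered by size of change. Filled points are the 9 genes called lower, open points were not called, and the dashed line is the median of all tested genes at -0.15; most points lie left of 0 in both panels.

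The members differed widely in level. Means over the 6 libraries ran from 0.285 FPKM for MRPS24 to 329 FPKM for MRPL41, with 8 members at 100 FPKM or more, 45 between 10 and 100, 21 between 1 and 10 and 3 under 1. In the large subunit MRPL41 (329 FPKM), MRPL14 (154 FPKM) and MRPL37 (124 FPKM) were the highest, and MRPL46 (0.686 FPKM), MRPL38 (0.780 FPKM) and MRPL42 (1.43 FPKM) the lowest. In the small subunit MRPS12 (159 FPKM), MRPS34 (133 FPKM) and MRPS18B (107 FPKM) led, and MRPS24 (0.285 FPKM), MRPS18C (2.01 FPKM) and MRPS17 (2.45 FPKM) came last. Some of the lowest members share exon bases on the same strand with another annotated gene: 37.5% for MRPL38, 27.0% for MRPS17, 23.2% for MRPS24 (with the read-through gene URGCP-MRPS24) and 11.3% for MRPL46. The share was 1.7% for MRPL42 and 0.0% for MRPS18C, which were also low, and 68.2% for MRPL12 at 30.1 FPKM. Whether sharing affected the levels was not tested. All tested members together summed to 3030, 2697 and 2554 FPKM in the sh-CFB libraries and 2638, 2885 and 3345 FPKM in the sh-NC libraries, which overlap. Within groups the coefficient of variation had a median of 12.3% in sh-CFB and 12% in sh-NC.

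Of the 28 tested small subunit genes 4 were lower in sh-CFB, and none was higher. MRPS28, the small subunit protein that takes the place of bacterial protein S1, changed most: it had 3.42, 3.94 and 4.14 FPKM in sh-CFB and 7.80, 7.15 and 8.72 FPKM in sh-NC. The groups were far apart, with means of 3.83 ± 0.37 FPKM in sh-CFB and 7.89 ± 0.79 FPKM in sh-NC (SD, n = 3 each), and the log2 fold change was -0.95 (SE 0.13, limma adjusted p = 0.013). MRPS28 lies on chromosome 8 and shares 35.8% of its exon bases with another protein-coding annotation on the same strand, so its reads may not all be its own. It was called in 4 of the 6 fits that left out a library.

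MRPS7, the counterpart of the bacterial protein that starts assembly of the small subunit's head, had 14.3, 15.8 and 16.1 FPKM in sh-CFB and 25.2, 25.3 and 32.9 FPKM in sh-NC. All sh-CFB values were lower, and sh-NC replicate 3 stood above the other control libraries. Its log2 fold change was -0.82 (SE 0.13, limma adjusted p = 0.015), and it too was called in 4 of the 6 fits that left out a library.

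MRPS23, a mitochondria-specific protein of the small subunit, had 14.8, 18.7 and 17.2 FPKM in sh-CFB and 23.0, 23.5 and 23.6 FPKM in sh-NC. The control libraries were nearly equal and all above the sh-CFB libraries, with a log2 fold change of -0.46 (SE 0.11, limma adjusted p = 0.046). MRPS16, a counterpart of a bacterial small subunit protein in which mutations cause a human respiratory chain disorder, had 50.5, 46.4 and 47.6 FPKM in sh-CFB and 60.8, 61.0 and 70.4 FPKM in sh-NC. Its log2 fold change was -0.40 (SE 0.10, limma adjusted p = 0.047). Neither gene was called in any fit that left out a library.

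Several small subunit genes had values as large as these but missed the threshold. MRPS10, the counterpart of a bacterial head protein, had 9.15, 12 and 16.0 FPKM in sh-CFB and 24.0, 19.5 and 19.4 FPKM in sh-NC, a log2 fold change of -0.76 (SE 0.20, limma adjusted p = 0.057). Its sh-CFB libraries differed from each other more than those of MRPS28, and its groups were separate. MRPS22, a mitochondria-specific protein, had 3.10, 3.73 and 3.79 FPKM in sh-CFB and 5.14, 5.63 and 4.99 FPKM in sh-NC, a log2 fold change of -0.51 (SE 0.14, limma adjusted p = 0.062). Both genes were singled out after their values were seen. In all, 20 of the 28 small subunit genes, 71.4%, had separate groups with sh-CFB lower, against 23.6% of all tested genes.

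MRPS24, the counterpart of a bacterial protein at the entry of the messenger channel, fell under the level filter. It was listed at 0.292, 0.345 and 0.230 FPKM in sh-CFB and 0.253, 0.182 and 0.408 FPKM in sh-NC, from 19 to 35 reads a library. The groups overlapped fully (two-sided exact permutation test, p = 1.0; the smallest p that 3 against 3 allows is 0.1). MRPS12, which helps to read the codon in the decoding centre, had 214, 151 and 140 FPKM in sh-CFB and 122, 144 and 181 FPKM in sh-NC, also overlapping, with a log2 fold change of 0.17 (SE 0.20, limma adjusted p = 0.63). MRPS5, at the same channel, had a log2 fold change of -0.23 (SE 0.10, limma adjusted p = 0.20).

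The small subunit genes nearest to the median gene were MRPS36, MRPS26 and MRPS21, with log2 fold changes of -0.16, -0.12 and -0.18. MRPS36 was named as a ribosomal protein but is now known as a subunit of the oxoglutarate dehydrogenase complex. Its groups overlapped, with 15.6, 21.6 and 17.1 FPKM in sh-CFB and 21.9, 19.9 and 18.6 FPKM in sh-NC.

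Of the 48 large subunit genes 5 were lower in sh-CFB and 0 were higher. MRPL18, whose bacterial counterpart binds the smallest ribosomal RNA, had 30.4, 33.8 and 32.9 FPKM in sh-CFB and 49.3, 45.2 and 52.6 FPKM in sh-NC. Values within each group lay close together and the groups were separate, with a log2 fold change of -0.59 (SE 0.10, limma adjusted p = 0.016). It was called in 3 of the 6 fits that left out a library.

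MRPL48, a mitochondria-specific protein of the central protuberance, the knob of the large subunit that faces the small one, had 3.67, 3.90 and 3.75 FPKM in sh-CFB and 5.71, 5.45 and 6.61 FPKM in sh-NC. Its log2 fold change was -0.58 (SE 0.13, limma adjusted p = 0.039). MRPL51, also mitochondria-specific, had 60.2, 65.3 and 59.8 FPKM in sh-CFB and 90.1, 85.6 and 94.3 FPKM in sh-NC, a log2 fold change of -0.54 (SE 0.09, limma adjusted p = 0.016). MRPL51 was the most abundant of the called genes, and 31.3% of its exon bases lie opposite exons of NCAPD2. The kit keeps strand, but the strand setting of the counting is not given in the sources used here, so reads of this pair may not be fully separated.

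MRPL16, a counterpart of a bacterial protein near the peptidyl transferase centre, had 33.8, 39.2 and 39.6 FPKM in sh-CFB and 50.6, 50.7 and 58.4 FPKM in sh-NC. Its log2 fold change was -0.50 (SE 0.11, limma adjusted p = 0.035). MRPL20, whose bacterial counterpart is an early assembly protein of the large subunit, had 19.9, 20.1 and 21.0 FPKM in sh-CFB and 26.9, 26.2 and 32.5 FPKM in sh-NC, a log2 fold change of -0.47 (SE 0.11, limma adjusted p = 0.044). In both genes the groups were separate and sh-NC replicate 3 was the highest library. MRPL51 was called in 2 of the 6 fits that left out a library, and MRPL48, MRPL16 and MRPL20 in none.

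**Figure D2:**
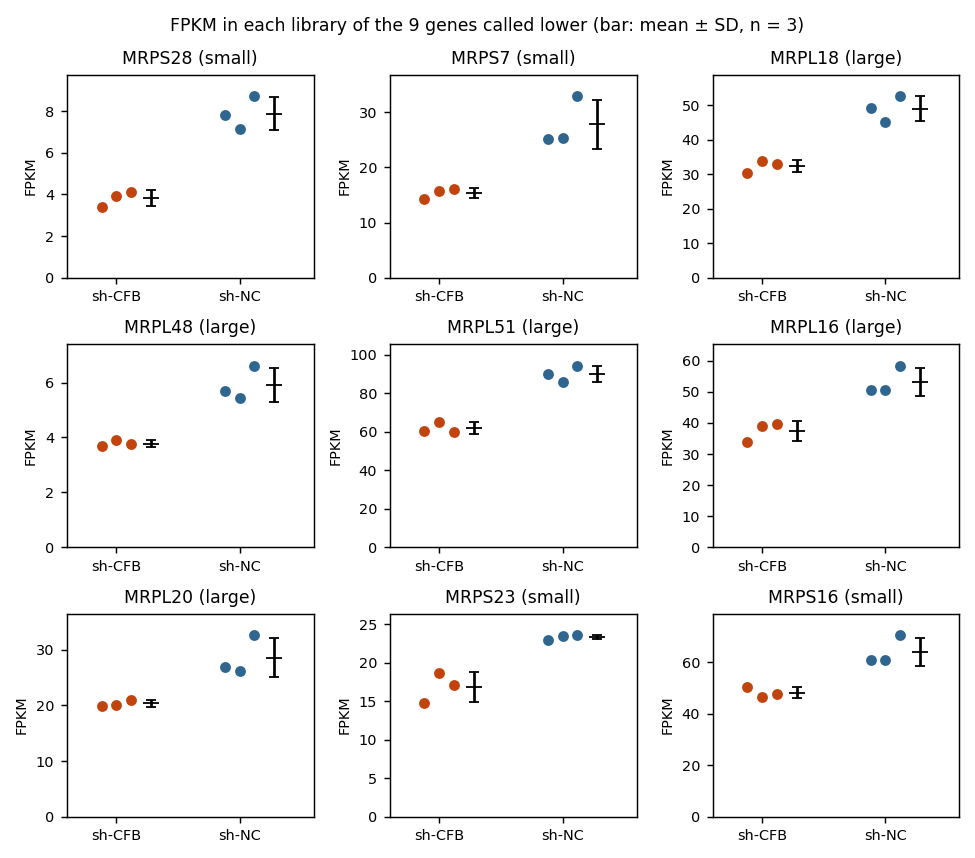
FPKM in each library (points) of the 9 members called lower, with sh-CFB left of sh-NC in each panel and the bar giving the mean ± SD of 3 libraries; each vertical axis starts at 0. In every panel the 3 sh-CFB points lie below the 3 sh-NC points, furthest apart in MRPS28 at 3.83 against 7.89 FPKM.

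Members that sit together in the ribosome did not all have the same sign. In the stalk, which recruits translation factors, MRPL10 had 71.2, 61.6 and 63.0 FPKM in sh-CFB and 47.9, 55.1 and 60.2 FPKM in sh-NC. It was the 1 member whose sh-CFB libraries were all above sh-NC, with a log2 fold change of 0.26 (SE 0.11, limma adjusted p = 0.19). MRPL11 and MRPL12, the other stalk proteins, had log2 fold changes of -0.09 and -0.04 with overlapping groups. MRPL12 shares 68.2% of its exon bases with another annotated gene on the same strand.

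Around the exit tunnel, where the new protein leaves, 0 of 5 genes were called and the median log2 fold change was -0.17. MRPL22, at the tunnel wall, had 14.7, 14.5 and 13.4 FPKM in sh-CFB and 16.8, 18.5 and 20.6 FPKM in sh-NC, a log2 fold change of -0.38 (SE 0.11, limma adjusted p = 0.078). MRPL45, which holds the ribosome at the inner membrane, was with MRPL58 and MRPL28 among the large subunit genes nearest to the median gene. It had a log2 fold change of -0.15 (SE 0.10), and MRPL28 one of -0.13 (SE 0.16). MRPL23 and MRPL24, also at the exit, had log2 fold changes of -0.17 and 0.05 with overlapping groups.

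MRPL47, the fifth exit protein, had the most negative log2 fold change of the large subunit, -0.63, but a wide error (SE 0.39, limma adjusted p = 0.36). Its values were 4.61, 13.9 and 7.89 FPKM in sh-CFB and 19.4, 11.2 and 9.25 FPKM in sh-NC. The groups overlapped, with sh-CFB replicate 1 at the bottom and sh-NC replicate 1 at the top. MRPL1 was as variable, with 3.44, 7.78 and 4.51 FPKM in sh-CFB and 11.5, 6.11 and 3.99 FPKM in sh-NC, and was singled out after its values were seen.

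Of the 6 genes of the central protuberance, 1 was called, MRPL48, and the median log2 fold change was -0.22. MRPL40 had 39.8, 33.3 and 32.7 FPKM in sh-CFB and 40.5, 42.9 and 46.2 FPKM in sh-NC, with a log2 fold change of -0.29 (SE 0.11, limma adjusted p = 0.15). MRPL46 had a log2 fold change of -0.37 at under 1 FPKM, and MRPL38 one of -0.05. MRPL58, a peptidyl-tRNA hydrolase built into the ribosome, and MRPS30, a large subunit protein despite its symbol, had log2 fold changes of -0.14 and -0.03. MRPL32, which the m-AAA protease cuts before it joins the ribosome, had a log2 fold change of -0.28 (SE 0.19, limma adjusted p = 0.39), with sh-CFB replicate 1 at 5.53 FPKM and the other libraries between 8.77 and 10.2 FPKM.

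The 3 human copies of the bacterial S18 gene differed most within a group. MRPS18A, which sits in the large subunit, had 65.5, 55.8 and 47.3 FPKM in sh-CFB and 41.5, 50.8 and 50.4 FPKM in sh-NC, a log2 fold change of 0.23 (SE 0.14, limma adjusted p = 0.35). MRPS18B, a small subunit protein at its own site, had 98.0, 93.5 and 101 FPKM in sh-CFB and 102, 115 and 133 FPKM in sh-NC, a log2 fold change of -0.25 (SE 0.11, limma adjusted p = 0.22). MRPS18C, which keeps the place of the bacterial protein, had 1.07, 1.74 and 1.16 FPKM in sh-CFB and 3.25, 2.74 and 2.15 FPKM in sh-NC, a log2 fold change of -0.82 (SE 0.21, limma adjusted p = 0.055).

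MRPS18B and MRPS18C thus had separate groups with sh-CFB lower and MRPS18A had overlapping groups, but none of the 3 was called and the differences between them were not tested. Opposite-strand exons cover 47.0% of the exon bases of MRPS18A (RSPH9) and 40.2% of those of MRPS18C (ABRAXAS1). The pseudogene MRPS18CP7 was listed at a mean of 0.508 FPKM, a level to set beside the 2.01 FPKM of MRPS18C itself.

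The large subunit genes had a median log2 fold change of -0.21 and the small subunit genes one of -0.28, so the large subunit was higher by 0.07. Called genes were 5 of 48 (10.4%) and 4 of 28 (14.3%), and 17 large subunit genes (35.4%) against 20 small subunit genes (71.4%) had separate groups with sh-CFB lower. Over all tested genes 5.71% were called lower and 23.6% were separate and lower, and the shares of the subunits were not matched for GC content. The mean log2 level of the large subunit exceeded that of the small by 0.33, 0.32 and 0.23 in sh-CFB replicates 1, 2 and 3 and by 0.21 in each sh-NC library. With MRPS30 and MRPS18A counted in the large subunit, as the structure has them, the medians were -0.18 and -0.29. The small subunit genes had a lower GC content, with a median of 46.2% against 49.8%, and after correction for GC content and length the large subunit was the lower one, at -0.15 against -0.08, so the order of the subunits depends on that step. Members with a bacterial counterpart had 6 of 47 called and a median of -0.28, and the mitochondria-specific ones 3 of 29 and -0.20.

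The GC content of the transcripts moved with these values. It ran from 33.5% to 71.9% over the members, and across the 76 members, which share the same libraries, its Spearman correlation with the log2 fold change was 0.60, against 0.31 across all tested genes. Set against how far a library lay from each gene's mean, the correlation was 0.77, -0.15 and -0.05 in sh-CFB replicates 1, 2 and 3 and -0.76, -0.44 and 0.29 in sh-NC replicates 1, 2 and 3. A principal component analysis of the members was run after each gene's mean and each library's mean over the members were removed. A shift common to all members in a library could therefore not appear in it. The first component held 70.8% of the variance that remained. It placed sh-CFB replicate 1 at 0.75 and sh-NC replicate 1 at -0.64, with the other libraries between -0.19 and 0.06. Those are the libraries with the steepest GC relations, and the part of this relation in the group difference of each gene was not tested beyond the correction below.

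Cut into 3 classes of about equal size at 43.8% and 51.8% GC, the members had median log2 fold changes of -0.39 in the low, -0.28 in the middle and -0.04 in the high class, with 1, 7 and 1 genes called lower. Those are 3.85%, 28% and 4% of the members in each class, where 3.35%, 9.95% and 4.57% of all tested genes in the same GC ranges were called lower, so calls were most frequent in the middle range in both. All tested genes in these ranges had medians of -0.19, -0.26 and 0.01. The medians of the low, middle and high class differed from those of all genes in the same range by -0.20, -0.02 and -0.05. Groups were separate with sh-CFB lower in 7 of 14, 6 of 14 and 4 of 20 large subunit genes of these classes. In the small subunit they were in 9 of 12, 11 of 11 and 0 of 5. Over all tested genes in these ranges they were in 628 of 3696, 1266 of 3537 and 1042 of 5164. In sh-CFB replicate 1 the median deviation was -0.51 for the low class and 0.22 for the high class, and in sh-NC replicate 1 it was 0.25 and -0.23.

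**Figure D3:**
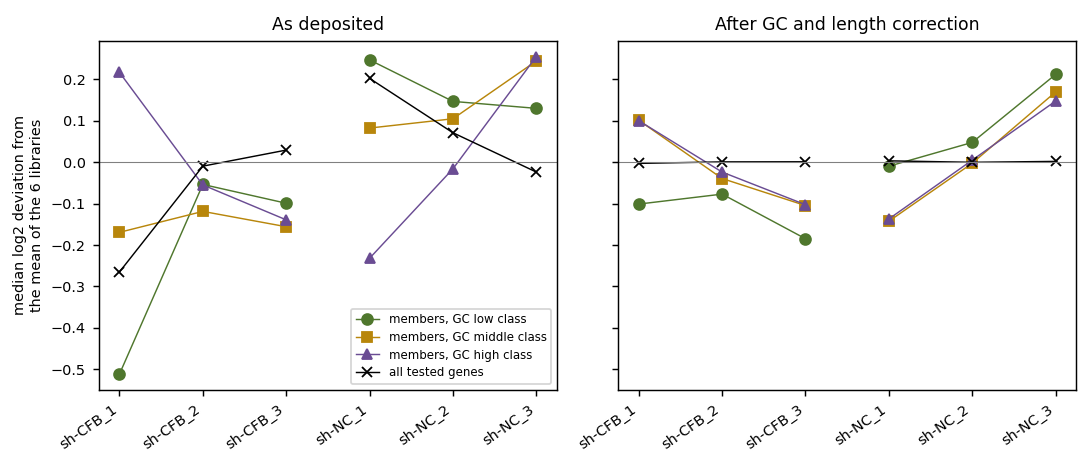
Median log2 deviation from the mean of the 6 libraries (vertical axis) in each library, for members in the low, middle and high class of GC content and for all tested genes, as deposited (left) and after GC and length correction (right). On the left, sh-CFB replicate 1 and sh-NC replicate 1 spread the classes in opposite order, from -0.51 to 0.22 and from 0.25 to -0.23; on the right the classes run closer together.

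After a per-library correction for GC content and length, 10 members were lower and 1 was higher in sh-CFB (limma, adjusted p of 0.05 or less), where 6.11% of the 12387 genes in that fit were called lower and 4.84% higher. The members' median was -0.11 and that of all genes 0.01. Of the 9 genes called before, 5 kept the call: MRPS28 (-0.72, adjusted p = 0.011), MRPS7 (-0.57, adjusted p = 0.030), MRPL18 (-0.37, adjusted p = 0.024), MRPL51 (-0.32, adjusted p = 0.037) and MRPL20 (-0.34, adjusted p = 0.045). MRPL48, MRPL16, MRPS23 and MRPS16 were at -0.29, -0.26, -0.17 and -0.11 and were not called.

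The correction also brought in other genes. MRPS18C (-0.62), MRPS10 (-0.54), MRPL40 (-0.34), MRPS26 (-0.35) and MRPL41 (-0.48) were called lower, and MRPL10 was called higher at 0.49 (limma adjusted p = 0.045). MRPL41, the most GC-rich member, had 392, 300.0 and 262 FPKM in sh-CFB and 268, 342 and 414 FPKM in sh-NC. Its groups overlapped as deposited, with sh-CFB replicate 1 and sh-NC replicate 3 both high, so its call rests on the correction.

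**Figure D4:**
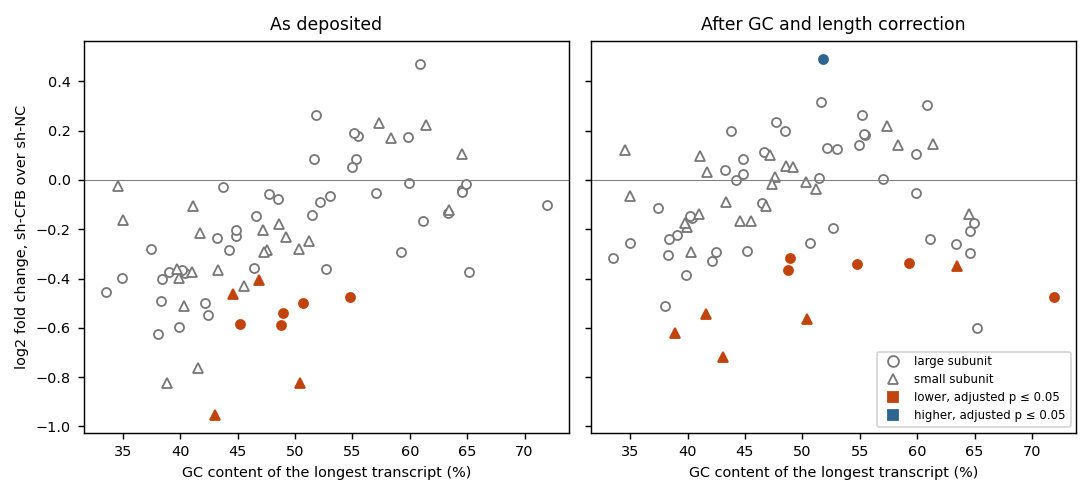
Log2 fold change of sh-CFB over sh-NC (vertical axis) against the GC content of the longest transcript in percent (horizontal axis) for the 76 tested members, as deposited (left) and after GC and length correction (right); circles are large and triangles small subunit genes, and filled points passed the test. On the left the points climb with GC content (Spearman correlation 0.60), and on the right MRPL10 is the 1 gene called higher.

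The members are spread over 21 chromosomes, with at most 8 on one, so they do not form a cluster. A protein-coding gene on the opposite strand starts within 1000 bases of 29 of the 77 members (37.7%), against 19.0% of the 10465 tested protein-coding genes. In 23 such pairs both genes were tested, and in 20 of them the log2 fold changes had the same sign. A shared sign is frequent here, since 8437 of the 12466 tested genes and 64 of the 76 tested members lay below 0. Of all tested genes 5.71% were called lower, and whether paired genes change together was not tested. In 2 pairs both genes were lower: MRPL18 with TCP1, a subunit of the cytosolic chaperonin (-0.59 and -0.60), and MRPL51 with NCAPD2, a condensin subunit (-0.54 and -0.61). In 3 pairs the neighbour alone was called lower, EME1 beside MRPL27, PPP1R10 beside MRPS18B and SKA3 beside MRPL57, and in 1 the member alone, MRPS7 beside GGA3.

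**Figure D5:**
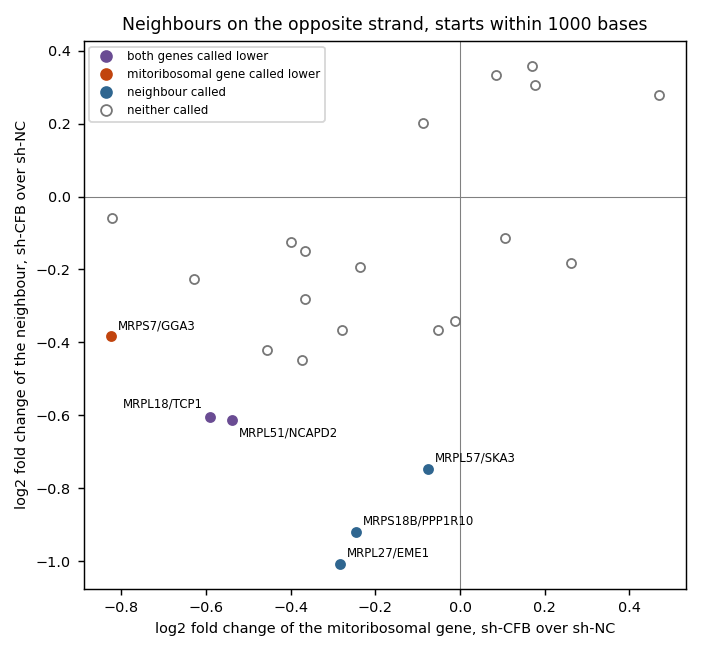
Log2 fold change of sh-CFB over sh-NC for a member (horizontal axis) and for the gene on the opposite strand that starts within 1000 bases (vertical axis), 1 point per pair, 23 pairs. Named points are pairs with at least 1 called gene; the MRPL18/TCP1 and MRPL51/NCAPD2 pairs lie at -0.59 and -0.60 and at -0.54 and -0.61.

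Promoter sequence is shown for 4 called members, because these are the stretches next to the genes' starts that carry no annotated exon, and MRPL18's is all the DNA between its start and that of TCP1. The sequences are from RefSeq on GRCh38.p14, 5′ to 3′ on the gene's strand, with matches to the searched motifs in capitals: MRPL18 at chr6:159789750-159789811 on the plus strand, and on the minus strand MRPL16 at chr11:59810873-59811028, MRPL20 at chr1:1407314-1407543 and MRPS23 at chr17:57850057-57850294.
MRPL18: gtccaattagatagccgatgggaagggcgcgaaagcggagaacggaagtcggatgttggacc
MRPL16: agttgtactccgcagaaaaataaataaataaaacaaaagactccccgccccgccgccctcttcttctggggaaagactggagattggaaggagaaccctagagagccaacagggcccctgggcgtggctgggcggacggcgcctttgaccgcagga
MRPL20: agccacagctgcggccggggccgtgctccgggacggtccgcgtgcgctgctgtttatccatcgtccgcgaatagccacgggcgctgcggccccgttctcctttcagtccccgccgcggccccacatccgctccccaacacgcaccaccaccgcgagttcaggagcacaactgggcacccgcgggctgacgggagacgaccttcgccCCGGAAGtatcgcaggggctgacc
MRPS23: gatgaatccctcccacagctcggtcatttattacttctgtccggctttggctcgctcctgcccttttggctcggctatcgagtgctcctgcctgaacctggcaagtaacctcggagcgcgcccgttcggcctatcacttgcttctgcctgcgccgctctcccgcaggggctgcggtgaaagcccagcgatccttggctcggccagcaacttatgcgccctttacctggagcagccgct
In these stretches the motif search matched once, an ETS motif in MRPL20.

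Over the whole window of 250 bases before to 50 bases after the start, 68 of the 77 members had a RefSeq promoter. The ETS motif CCGGAAG, of the kind bound by GABP, was found on either strand in 41.2% of members, against 20.6% of tested genes and 10.7% of all 27305 promoters. The YY1 core AAGATGG was found in 33.8%, against 8.14% and 6.06%, the NRF1 core GCATGCG in 10.3%, against 7.18% and 4.13%, and the E-box CACGTG in 8.82%, against 10.8% and 7.43%. The ETS motif and the YY1 core can share the letters AAG, in which case both are counted, and a match is a description of the sequence, not of binding. Of the 8 called members with a promoter, 6 held the ETS motif and 4 the YY1 core, and MRPL18 held none of the 4 motifs. The large and small subunit had similar shares of the ETS motif, 39.0% and 44.4%.

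Among the other genes of mitochondrial translation few were called in each list, beside 5.71% of all tested genes called lower. Differences between these lists were not tested. Of 5 subunits with other symbols none was called, with DAP3, a small subunit GTP-binding protein, at 26.2, 26.7 and 26.7 FPKM in sh-CFB and 32.2, 34.1 and 36.2 FPKM in sh-NC (log2 fold change -0.36, SE 0.09, limma adjusted p = 0.052). AURKAIP1, the most abundant of the 5, had a log2 fold change of 0.01. Of 30 assembly and rRNA modification factors 2 (6.67%) were lower. They were NDUFAB1, the mitochondrial acyl carrier protein (-0.61, limma adjusted p = 0.021), and C1QBP, a matrix protein that aids ribosome assembly (-0.53, limma adjusted p = 0.0205).

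None of 15 translation and membrane insertion factors was called, and TUFM, the elongation factor that brings tRNAs, had a log2 fold change of 0.23 (SE 0.20). Of 16 factors for mitochondrial transcription, RNA processing and DNA upkeep 3 (18.75%) were lower. They were the helicase SUPV3L1 (-0.81, limma adjusted p = 0.046), the single-stranded DNA binding protein SSBP1 (-0.59, limma adjusted p = 0.015) and the tRNA-processing enzyme ELAC2 (-0.57, limma adjusted p = 0.015). NDUFAB1, C1QBP and SSBP1 were not called after GC and length correction, at -0.36, -0.29 and -0.39.

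The products that the mitochondrial ribosome contains or translates were not called. The 2 mitochondrial rRNAs had log2 fold changes of 0.11 and 0.31, and the poly(A) kit does not measure rRNA evenly. None of the 13 mitochondrially encoded protein genes was called, with a median of -0.36 and MT-CO2, the most abundant, at 2974, 3065 and 2974 FPKM in sh-CFB and 3609, 2908 and 5502 FPKM in sh-NC, where sh-NC replicate 3 stood alone. Of 9 nuclear regulators of mitochondrial genes none was called. MYC, the most abundant of them, had 74.5, 79.1 and 88.0 FPKM in sh-CFB and 65.3, 65.2 and 60.0 FPKM in sh-NC, a log2 fold change of 0.34 (SE 0.10, limma adjusted p = 0.077) that passed after GC and length correction (0.51, limma adjusted p = 0.011).

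Beside these, the nuclear genes of the respiratory chain and ATP synthase had 9 of 76 lower, 0 higher and a median of -0.25, but 2 of 76 lower and a median of -0.08 after GC and length correction, where the members had 10 of 76 lower and a median of -0.11. The cytosolic ribosomal protein genes had 1 of 81 lower, 2 higher and a median of 0.11, and after the correction 1 of 77 lower, 13 higher and a median of 0.29. Over all tested genes 5.71% were called lower and 1.74% higher, and after the correction 6.11% and 4.84%. The differences between these lists and the members were not tested. Of the 12 pseudogenes of members in the table the highest, MRPL3P1, had a mean of 0.553 FPKM, and 15 members share exon bases with another gene on the same strand and 29 on the opposite strand, where reads may be shared or lost.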

How the data were processed

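RNA of 6 libraries, 3 of sh-CFB and 3 of sh-NC cells, was made into stranded poly(A) libraries, per the labels' protocols. The authors deposited FPKM values in 1 table with 1 column a library. The submitters' processing notes name featureCounts 2.0.1, STAR 2.7.3a, Trimmomatic 0.39 and FastQC 0.11.9, and the build GRCh38. Not given in the sources used here were how FPKM were computed, which annotation release was counted, whether strand was used and where multi-mapped reads went. Shared or overlapping exons can therefore add or remove reads of a gene. A count table named in the labels was not analysed here.

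A gene entered the test if its mean reached 0.5 FPKM (12466 genes), on the scale log2(FPKM + 0.5), with limma 3.58.1 in R 4.3.3 (intensity trend, Benjamini-Hochberg over all tested genes, 0.05). Fold changes on that scale understate changes of low genes. The replicate numbers were not used as a block. Library totals were recovered from the steps between low FPKM values, since these are whole reads for 99.96% of genes (within 0.001 of a read), and 87.7% of the recovered gene lengths lay within 10% of the annotated length. The totals ran from 26.2 to 40.0 M reads. Because FPKM are not counts, the recovered reads entered only an alternative (voom). Correction for GC content and length used a lowess curve in each library with a span of 0.3. The fit was tested on simulated data with neither a GC relation nor a shift of the median gene, so that test does not cover these features of the libraries.

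Symbols came from the name table given with the reference, which named 22492 of 28495 genes, and coordinates, gene types, exons and GC content (longest transcript) from GENCODE 29 on GRCh38, which held 27730. MRPL53 was not analysed here. Described genes were all called members, the 3 highest, 3 lowest and 3 nearest to the median gene in each subunit, structural groups, and in each list up to 2 called genes per direction or else the most abundant one. ELAC2, DAP3 and the genes marked in the text were added after their values were seen. The members and lists were chosen with earlier results of these data known. Promoters were meant for the called members with the largest changes, but MRPS28 lies on chromosome 8 and the windows of MRPS7, MRPL48 and MRPL51 lie within annotated exons, so the next were taken, without exon bases and with at least 50 bases. Alternatives were other pseudocounts, filters and scalings, GC and length correction, a replicate block, voom, no intensity trend and leaving out libraries. The remaining steps ran in Python 3.11.15 (scipy 1.17.1, numpy 2.4.6, matplotlib 3.10.9, pandas 2.3.3). One gene of the check of the cell line is not reported here.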

Additional observations from a re-analysis of the deposited data

How the results depend on the processing

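All 9 genes called lower kept their sign in each alternative run, but many of these runs could not have changed it. Their groups were separate, so leaving out libraries could not reverse the sign. The replicate block and the fit without intensity trend do not alter log2 fold changes. The differences of medians did not all keep their sign. Large minus small changed sign after GC and length correction, and members minus all genes, -0.10, was 0.01 without sh-NC replicate 3. The count of called members, 9, was 4 with no filter on low values, 12 with a mean of at least 2 FPKM, 1 with median-of-ratios factors, 4 with voom on recovered reads and 5 without the intensity trend, and the cause was not tested. In the large subunit the 5 calls became 2, 5, 0, 2 and 3 in the same settings, with 3 under quantile normalization and 3 with both replicate 1 libraries left out. In the small subunit the 4 calls became 2, 7, 1, 2 and 2. Over all genes the 929 calls became 324 with no filter, 206 with median-of-ratios factors, 684 with voom and 531 without the intensity trend. With a mean of at least 2 FPKM they rose to 1172 of 8071 genes, 884 of them lower, beside the 12 of 73 members.

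Leaving out 1 library at a time gave 0 to 4 called members, 0 to 2 of the large and 0 to 3 of the small subunit, and 20 to 540 calls over all genes. Such fits hold 5 libraries, and calls fell to 0 among the members, with 39 and 20 over all genes, without sh-CFB replicate 2 and without sh-NC replicate 2. The large minus small difference of medians, 0.07, stayed between 0.04 and 0.09 in these fits, and was 0.10 with the subunits assigned by structure. It was -0.074 after GC and length correction, with and without the replicate block.

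With the replicate number as a block, limma called 0 members, 0 large and 0 small subunit genes and 0 genes in all, with and without GC and length correction. Deviations of same-numbered libraries from their group means correlated at -0.54, 0.07 and -0.45, and sh-CFB replicate 1 correlated best with sh-NC replicate 3 (0.57). These values were not corrected for GC content, so they cannot show whether same-numbered samples were paired.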
